A study of Hordeum vulgare with 10 samples.

Results

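The miR156 family was examined in the embryo and scutellum of dry barley (Hordeum vulgare) seeds of cv. Damazy. The members were the 6 rows of the count table named miR156.1 to miR156.6, and hvu-new54, a predicted miRNA that has the same sequence as miR156.5. These 7 rows were taken from a table of 142 miRNAs, of which 61 were known and 81 predicted. The rule used names and sequence, not levels. Small RNA was sequenced in 9 libraries, 3 each of 3 groups of seeds. The regenerated seeds (Rc) were grown in the field in 2017 and 2018 from the high-viability seeds and dried to about 7% water. The stored seeds were harvested in 1972 as 1 seed lot, dried to 2.96% water, sealed in separate flasks and stored until 2018. In that year the seeds of the low-viability flask (Lv) germinated at 2% and those of the high-viability flask (Hv) at 86.7%. By then the Lv seeds held more water than the Hv seeds, and the paper proposes a slight leak of their flask. Each library was made from pooled seeds, and the replicates of a group come from a single flask or harvest. Storage and viability therefore cannot be told apart from flask, harvest or the seeds' moisture, which also differed.

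In plants, miR156 acts on transcripts of SQUAMOSA promoter-binding-like (SPL) transcription factors, which promote the change from the juvenile to the adult phase and flowering. The miRNA is cut by a Dicer-like enzyme from the stem of a folded precursor, the hairpin. A cut or a later trimming that falls a base or more away gives an isomiR, a form that differs at its 5′ or 3′ end. In dry seeds metabolism is at rest.

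The 5 isomiRs with a sequence in the sources used here are shown because they differ only at their ends, all being stretches of the 21-nt miR156.6. Capitals mark bases 2 to 8, the stretch called the seed.
miR156.6: uGACAGAAgagagugagcaca
miR156.5: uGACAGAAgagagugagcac
miR156.4: uGACAGAAgagagugagca
miR156.2: gACAGAAGagagugagcac
miR156.1: aCAGAAGAgagugagcaca

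The first 3 share the 5′ end and thus the seed, and become shorter by 1 base each at the 3′ end, from 21 to 20 to 19 nt. The 19-nt miR156.2 begins 1 base later and the 19-nt miR156.1 begins 2 bases later, so that each has a seed of its own. The sequence of miR156.3 is not given in the sources used here, and this isomiR is named only.

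The hvu-new54 miRNA was listed at 4 loci of the barley genome (build IBSC_v2), all on the plus strand, with 3 distinct hairpins. These are shown because they hold the family's sequence, with its 20 bases (19 where the hairpin starts 1 base into it) in capitals.
hairpin at chr2H:623451728-623451819: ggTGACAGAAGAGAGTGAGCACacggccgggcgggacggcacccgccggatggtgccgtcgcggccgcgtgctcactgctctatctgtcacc
hairpin at chr6H:362942158-362942248: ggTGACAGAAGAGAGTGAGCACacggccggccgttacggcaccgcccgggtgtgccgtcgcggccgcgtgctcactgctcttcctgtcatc
hairpin at chr6H:116985042-116985122: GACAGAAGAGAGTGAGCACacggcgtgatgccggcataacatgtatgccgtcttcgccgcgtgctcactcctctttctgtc

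The last of these was listed a second time, with the same letters, at chrUn:84517911-84517991, a stretch not placed on a chromosome. The hairpin on 2H and the 91-nt hairpin on 6H were 89.1% identical in a global alignment. The 81-nt hairpin was 72.0% identical to the former and 70.2% to the latter. In all of them the next base after the capitals is the A with which miR156.6 ends, so that each hairpin can hold the 3′ ends of miR156.4, miR156.5 and miR156.6. By RNAfold, the minimum free energy was -67.7 kcal/mol for the hairpin on 2H, -61.0 for the 91-nt hairpin and -49.7 for the 81-nt hairpin, and every base in capitals was paired. A miRNA*, the strand opposite to the miRNA in the stem, was listed for the 2H hairpin alone (gctcactgctctatctgtcac, 21 nt, from base 71 of the hairpin). Counted from the listed hairpin starts, the 20 bases begin 1 base before the listed start of the miRNA on 2H and on 6H (91-nt hairpin). Gene models around these loci were not used here.

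Most counts of the family came from 2 isomiRs. Over the 9 libraries miR156.3 had 2016 counts and miR156.5 had 1973, together 92.0% of the 4334 counts of the 6 isomiRs. The 19-nt miR156.4 followed with 273 counts, and the 21-nt miR156.6 had 70. The isomiRs with a later 5′ end were each counted once, miR156.1 in Hv replicate 2 and miR156.2 in Lv replicate 2. Among the 5 isomiRs with a sequence, 2 of 2318 counts thus had a later 5′ end, 0.0863% (95% Wilson interval 0.0237 to 0.314%, which covers counting error only). By counts, the ends of these 5 isomiRs varied almost entirely at the 3′ side. This leaves out miR156.3, with 46.5% of the family counts, whose ends are not known here. By total count miR156 was in place 3 of 13 families, after miR159 with 10502 counts and miR166 with 4989.

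**Figure D1:**
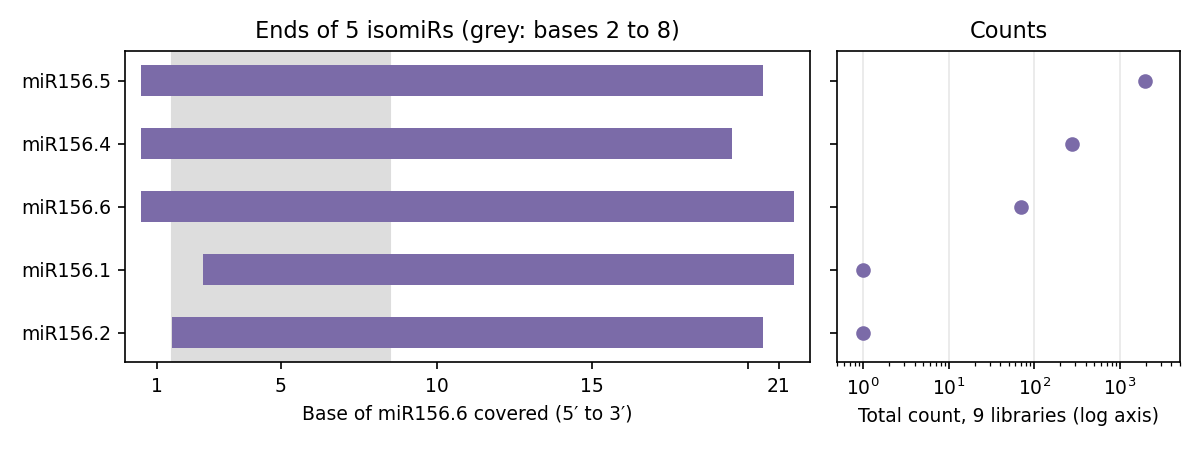
Ends of the 5 miR156 isomiRs with a sequence. The bars show which bases of the 21-nt miR156.6 each isomiR covers (5′ to 3′, grey marks bases 2 to 8), and the points show its total count over 9 libraries on a log axis. The forms that start at base 1 have 1973 (miR156.5), 273 (miR156.4) and 70 (miR156.6) counts, and those that start later have 1 each.

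The sites below are printed because they show what the 3′ ends meet on the SPL transcripts, for 6 barley transcripts similar to rice SPL proteins in the part of the predicted target table used here. Each site is the 21-base stretch opposite miR156.6, and capitals mark bases that form no Watson-Crick pair with it.
site in 4 transcripts similar to SPL16, SPL17 or SPL18: ugugcucUcucucuucuguca
site in 1 transcript similar to SPL13: CAugcucCcucucuucuguca
site in 1 transcript similar to SPL3: CAugcucUcucucuucuguca

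In every site the base opposite position 14 of the miRNA (counted from its 5′ end) was unpaired, and positions 2 to 8 were paired. On the first site the 19-nt miR156.4 paired at 18 of 19 bases, the 20-nt miR156.5 at 19 of 20 and the 21-nt miR156.6 at 20 of 21. The added 3′ bases of the longer forms therefore met a partner there. On the SPL13- and SPL3-like sites positions 20 and 21 had none, so that miR156.4, miR156.5 and miR156.6 all paired at 18 bases. These transcripts were not measured in the files.

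In the count table hvu-new54 was not a separate measurement. In Rc its counts were 752, 824 and 1868, beside 188, 206 and 467 for miR156.5. This ratio of 4, the number of its listed loci, held exactly in each of the 9 libraries. This row alone took 7.03 to 11.5% of all counts of a library, and its total of 7892 was 1.82 times that of the whole family. It was therefore kept out of the family sum and is described only as a copy. It was not taken out of the counts and tests over all miRNAs.

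The libraries were shallow. They held 3966 to 19542 counts in all, with the copied counts included, of which 940 to 4407 were of known miRNAs and 193 to 904 of miR156. Levels below are RPM, counts per 1000000 reads mapped to the genome. The known miRNA counts exceeded the number of reads that the study matched to miRNAs, by a factor of 1.58 to 2.53 among Rc libraries, 1.30 to 1.73 among Lv libraries and 1.17 to 2.25 among Hv libraries, and RPM levels carry this factor. The part of this factor in the differences between groups was not tested. All Lv libraries, with Hv replicate 3, were sequenced in run 2, and Hv replicates 1 and 2 with Rc replicates 2 and 3 in run 1. Rc replicate 1 has a sample in each run, and which of them its single count column holds is not known here.

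The miR156 family as a whole stood highest in the regenerated seeds and lowest in the stored seeds of low viability. The Rc libraries stood at 1518, 2332 and 2064 RPM, on average 1971 ± 415 (SD, n = 3). The Lv libraries stood at 1113, 1239 and 1133 RPM, on average 1162 ± 67.9, and the Hv libraries at 1194, 1504 and 1860 RPM, on average 1520 ± 333. In RPM every Lv library was thus below every Rc library, as for 2 of 9 families (22.2%), while Hv overlapped both groups. On the scale of TMM-normalized counts per 1000000 counts of the table (CPM), Lv and Rc overlapped (Lv was below Rc throughout in 0 of 9 families, 0%), and every Lv library was below every Hv library, as in 1 of 9 (11.1%). The Lv libraries were also the most alike.

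None of these differences passed adjustment over the 9 families tested. The 6 stored libraries were lower than Rc by 0.56 on the log2(RPM + 1) scale (exact two-sided permutation p = 0.0476, adjusted p = 0.321). The difference of Lv from Rc was -0.74 (exact p = 0.1, the smallest that 3 against 3 can give, adjusted p = 0.3). Hv differed from Rc by -0.38 (exact p = 0.2, adjusted p = 0.9) and Lv from Hv by -0.37 (exact p = 0.2, adjusted p = 0.9). The same contrast of stored with Rc was -0.15 for miR159, which targets MYB transcription factors, and -0.21 for miR166, which targets HD-ZIP III transcription factors. The contrast was larger than that of miR156 for miR168, which targets ARGONAUTE1 and was named after its values were seen, at -0.73 (exact two-sided permutation p = 0.0714, adjusted p = 0.321), and 8 of the 9 families were below 0. Whether miR156 differed from these families was not tested. The size of the miR156 difference depended on the scale. In TMM-normalized CPM it was -0.22 for stored against Rc, -0.38 for Lv against Rc, -0.06 for Hv against Rc and -0.32 for Lv against Hv. Within run 1, with 2 Hv and 2 Rc libraries, the family was lower in Hv by 0.71 (exact p = 0.333, the smallest possible).

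**Figure D2:**
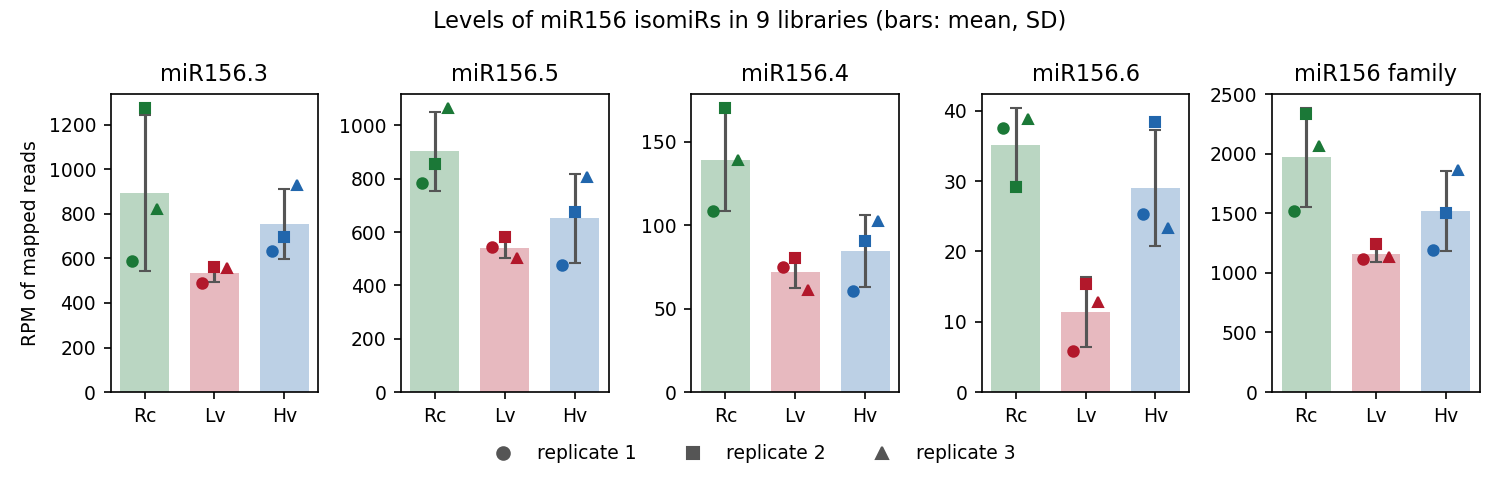
Levels of the 4 miR156 isomiRs with at least 10 counts and of the family, in RPM of mapped reads. Points are libraries, bars the mean of 3 libraries and error bars the SD, for Rc, Lv and Hv. The 3 Lv libraries lie below the 3 Rc libraries in every panel, and below the 3 Hv libraries for miR156.3 and miR156.6. Over 99 miRNAs, Lv lies below Rc in this way for 18 (18.2%) and below Hv for 2 (2.02%).

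The 20-nt miR156.5 followed the family. The Rc libraries had 784, 856 and 1066 RPM, the Lv libraries 542, 580 and 504 RPM, and the Hv libraries 476, 674 and 805 RPM. The Lv libraries stood below all Rc libraries, as for 18 of 99 miRNAs (18.2%). The lowest Hv library was below all of Lv and the highest above the lowest of Rc. In edgeR with TMM, the log2 fold change of Lv against Rc was -0.37 (standard error 0.186, adjusted p = 0.466) and that of stored against Rc -0.27 (standard error 0.159, adjusted p = 0.690). The 95% interval of the latter ran from -0.62 to 0.09, so that a change of 1 on the log2 scale lay outside it. With library sizes from mapped reads the values were -0.74 for Lv against Rc (edgeR adjusted p = 0.321) and -0.60 for stored against Rc (edgeR adjusted p = 0.252), and the interval of the latter, from -1.09 to -0.10, did hold -1.

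The copy hvu-new54 gave other error estimates from the same information. Its log2 fold change of stored against Rc was again -0.27, but with a standard error of 0.136 in place of 0.159 and an unadjusted p of 0.0776 in place of 0.123 (edgeR). For Lv against Rc the unadjusted edgeR p was 0.0386 for hvu-new54 and 0.0764 for miR156.5. The copied row would thus fall under 0.05 before adjustment where the row it repeats would not. Another predicted miRNA, hvu-new80, repeats miR159.6 by the same factor of 4. Both repeated rows stayed in the edgeR tests, their adjustment and the TMM scaling. With both left out, miR156.5 was at -0.31 for stored against Rc (edgeR adjusted p = 0.589).

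The level of miR156.3 was the most uneven among regenerated seeds. The Rc libraries had 588, 1276 and 820 RPM, while the Lv libraries had 490, 561 and 555 RPM and the Hv libraries 632, 698 and 930 RPM. Rc replicate 2 stood far above the other libraries, and every Lv library lay below all Rc and all Hv libraries. Lv was below Rc in this way for 18 of 99 miRNAs (18.2%) and below Hv for 2 of 99 (2.02%). The edgeR log2 fold change was -0.17 for stored against Rc (standard error 0.295, adjusted p = 0.971) and -0.45 for Lv against Hv (standard error 0.329, adjusted p = 0.975). Without Rc replicate 2 the value for stored against Rc was 0.31 (edgeR adjusted p = 0.970), the opposite direction, and with library sizes from mapped reads it was -0.47 (edgeR adjusted p = 0.645).

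The 19-nt miR156.4 lacks the last 2 bases of miR156.6. In RPM it was lower in each of the 6 stored libraries than in any Rc library, as were 6 of 99 miRNAs (6.06%). The values were 108, 170 and 139 RPM among Rc libraries, 75.0, 80.2 and 61.4 RPM among Lv libraries, and 60.7, 90.7 and 102 RPM among Hv libraries. On the TMM scale Hv replicate 3 came above Rc replicate 1, so that stored and Rc overlapped there. The log2 fold change of stored against Rc was -0.52 (standard error 0.298, edgeR adjusted p = 0.690) with TMM and -0.82 (edgeR adjusted p = 0.308) with library sizes taken from mapped reads. Without Rc replicate 2 it was -0.24 (edgeR adjusted p = 0.970).

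The 21-nt miR156.6 was the rarest of the 4 and the one with the largest difference of Lv from Rc and from Hv. For stored against Rc its edgeR log2 fold change with TMM, -0.47, was smaller than that of miR156.4, -0.52. It was counted 9, 7 and 17 times in the Rc libraries, 1, 5 and 5 times in the Lv libraries, and 5, 11 and 10 times in the Hv libraries. In RPM the Rc libraries stood at 37.5, 29.1 and 38.8, those of Lv at 5.77, 15.4 and 12.8, and those of Hv at 25.3, 38.4 and 23.3. Every Lv library was below every Rc and every Hv library, on the RPM and on the TMM scale, while Hv and Rc overlapped. In RPM, Lv was below Rc in this way for 18 of 99 miRNAs (18.2%) and below Hv for 2 (2.02%). On the TMM scale these were 12 (12.1%) and 3 (3.03%). The log2 fold change was -1.22 for Lv against Rc (standard error 0.638, edgeR adjusted p = 0.466) and -1.24 for Lv against Hv (standard error 0.641, edgeR adjusted p = 0.670). The 95% interval of the latter ran from -2.70 to 0.22. The Lv values rest on 11 counts in all. Hv replicate 3, the only Hv library that shared run 2 with Lv, was the lowest of Hv at 23.3 RPM, from 10 counts. In RPM it stood above the 3 Lv libraries. As a share of the family it had 1.25%, beside 1.24% in Lv replicate 2. With run as a covariate and the Rc column of unknown run left out, Lv against Hv was -0.90 (edgeR adjusted p = 1). With 1 Hv library in run 2, run and viability could not be told apart here.

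Across all miRNAs with at least 10 counts, 0 of 99 (0%) passed the edgeR test at an adjusted p of 0.05 in each of the 4 comparisons, and so none of the miR156 members did. Without adjustment, 9 of 99 (9.09%) were under 0.05 for stored against Rc, 9 for Lv against Rc, 6 (6.06%) for Hv against Rc and 5 (5.05%) for Lv against Hv. DESeq2 called 3, 2, 1 and 0 miRNAs in the same order, none of them of miR156. The 4 isomiRs all had fold changes below 0 for stored against Rc, with a median of -0.37 beside -0.02 over the 99 miRNAs. For Lv against Rc the median was -0.52 beside -0.12, and for Lv against Hv -0.33 beside -0.01. For Hv against Rc it was -0.07 beside 0.02, with miR156.3 at 0.04 and miR156.6 at 0.02. Each of these 2 values near 0 was below 0 in 9 of the 17 alternatives run, with library sizes from mapped reads among them. Library sizes from mapped reads moved the median of the 99 miRNAs to -0.35 for stored against Rc, -0.49 for Lv against Rc, -0.29 for Hv against Rc and -0.09 for Lv against Hv, and the medians of the isomiRs to -0.69, -0.84, -0.37 and -0.38. Without adjustment, 14 of 99 were under 0.05 on that scale for Lv against Rc, with the 4 isomiRs and hvu-new54 among them. The unadjusted edgeR p of these isomiRs was 0.0212 to 0.0491, and the adjusted p 0.321 to 0.347. For stored against Rc it was 11 of 99, with miR156.4, miR156.5 and hvu-new54 among them. The comparisons with Rc share their Rc libraries, and so do not repeat each other independently.

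**Figure D3:**
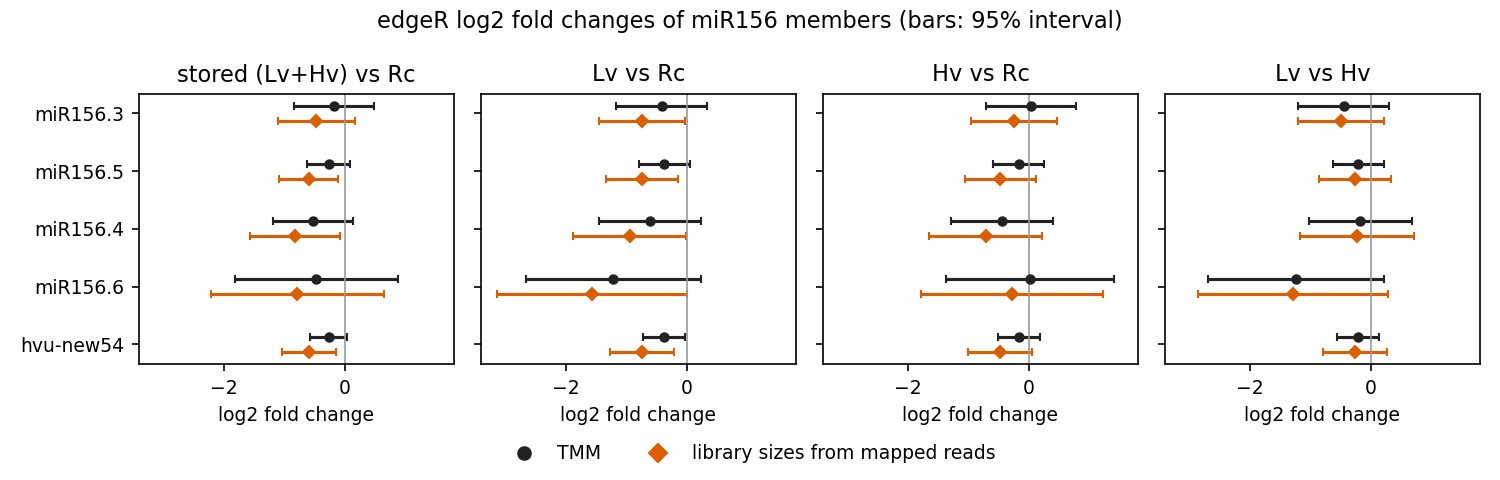
Log2 fold changes of the 4 isomiRs and of hvu-new54 in 4 comparisons, from edgeR with TMM (black circles) and with library sizes from mapped reads (orange diamonds). Bars are 95% intervals without adjustment for the number of miRNAs. With TMM the bars of the 4 isomiRs cross 0 in every comparison, and the widest are those of miR156.6, from -2.70 to 0.22 for Lv against Hv. With library sizes from mapped reads, the bars of miR156.3, miR156.4 and miR156.5 lie below 0 for Lv against Rc. On that scale those of miR156.4 and miR156.5 also do so for stored against Rc.

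The separation of the groups was compared with that of all miRNAs. In RPM every Lv library was below every Rc library for miR156.3, miR156.4, miR156.5 and miR156.6, which was so for 18 of 99 miRNAs (18.2%, hvu-new54 among them). On the TMM scale this held for miR156.4, miR156.5 and miR156.6, among 12 of 99 (12.1%). Every Lv library was below every Hv library in RPM for miR156.3 and miR156.6, and these were the only 2 of 99 (2.02%). On the TMM scale it was so for miR156.6, as 1 of 3 (3.03%). In RPM every stored library was below every Rc library for miR156.4 alone among the isomiRs, against 6 of 99 miRNAs (6.06%), and every Hv library below every Rc library again for miR156.4 alone, against 9 of 99 (9.09%). On the TMM scale neither was so for any of the isomiRs, against 3 (3.03%) and 6 (6.06%) of the 99.

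The make-up of the family, which does not depend on library size, was dominated by the same 2 isomiRs in the 3 groups. Rc had 46.7% ± 8.62 (SD, n = 3) of its family counts in miR156.5, Lv had 46.6% ± 2.12 and Hv 42.6% ± 2.53. For miR156.3 the shares were 44.4% ± 8.96, 46.1% ± 2.57 and 49.8% ± 3.29 in the same order. The largest contrast lay within Rc. In Rc replicate 2, miR156.3 held 54.7% of the family (95% Wilson interval 50.6 to 58.8%), against 38.7% (33.9 to 43.8%) in replicate 1 and 39.7% (36.6 to 42.9%) in replicate 3. The intervals of replicate 2 do not overlap the others, so that the difference was larger than counting error if each count is a separate read. Known miRNA counts exceeded matched reads by a factor of 1.58 to 2.53 among Rc libraries, so that the intervals may be too narrow. Replicate 2 was singled out after its values were seen. The ratio of miR156.3 to miR156.5 was 1.49 in Rc replicate 2 and 0.75 to 1.33 in the other 8 libraries. The same library had 32.2% of its known miRNA counts in miR156, against 16.1 to 23.3% elsewhere, and 39.1% in miR159, against 47.6 to 53.8% elsewhere. Without it, the family difference between stored seeds and Rc in log2(RPM + 1) was -0.43 (exact two-sided permutation p = 0.143, adjusted p = 0.321).

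**Figure D4:**
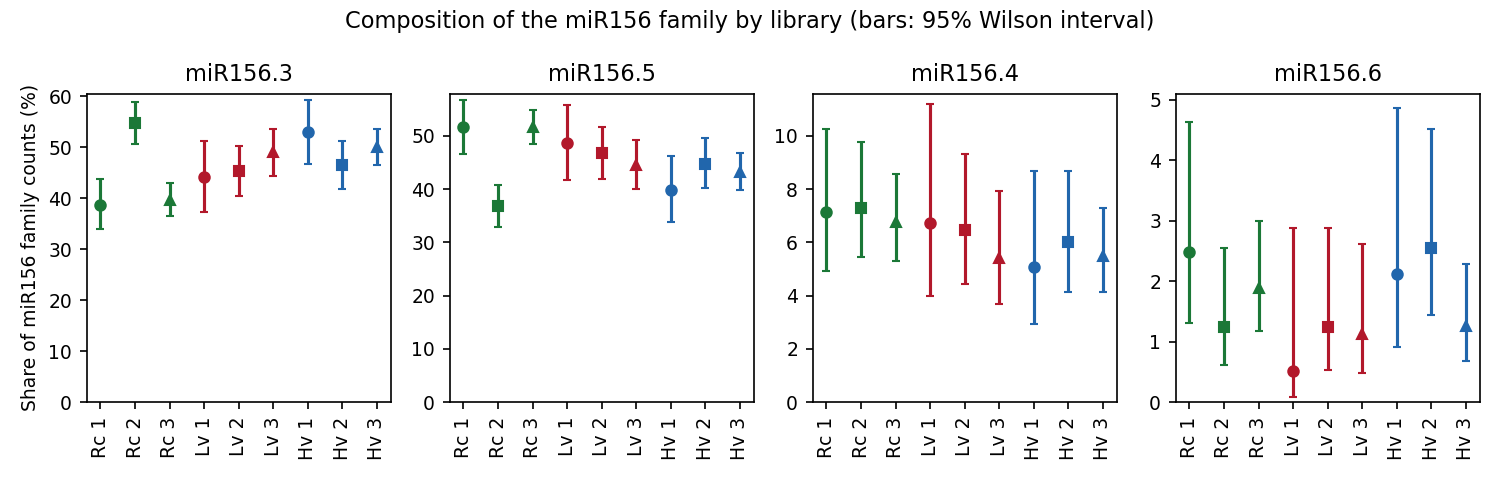
Share of each isomiR in the miR156 family counts, in percent, for each library of Rc (green), Lv (red) and Hv (blue), with 95% Wilson intervals. Rc replicate 2 is highest for miR156.3 (54.7%) and lowest for miR156.5 (36.7%), and the miR156.4 shares of the 6 stored libraries lie at 6.74% or less, with the 3 Rc libraries at 6.75% or more.

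The 2 minor 3′ forms had shares of a few percent. For miR156.4 the shares were 7.14, 7.31 and 6.75% among Rc libraries, 6.74, 6.47 and 5.42% among Lv libraries, and 5.08, 6.03 and 5.50% among Hv libraries. The stored libraries lay below those of Rc, as for 1 of 25 isomiRs (4%), by a margin that was within counting error for each library. The difference was -0.28 on the log2 scale (exact two-sided permutation p = 0.0476, adjusted p = 0.397 over 25 isomiRs). Of these 25 isomiRs, 3 (12%) had an unadjusted p under 0.05 and 0 (0%) an adjusted one. As a ratio to miR156.5 in place of the rest of the family, the difference was -0.21 (exact p = 0.286, adjusted p = 0.603).

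For miR156.6 the mean share was 0.964% ± 0.390 (SD, n = 3) among Lv libraries, against 1.87% ± 0.612 among Rc and 1.97% ± 0.663 among Hv libraries. The highest Lv share, 1.244% in replicate 2, nearly met the lowest of Rc (1.248%) and of Hv (1.25%). Per count of the 20-nt miR156.5 there were 0.0106 to 0.0266 counts of the 21-nt form in Lv libraries. The range was 0.0340 to 0.0479 in Rc libraries and 0.0289 to 0.0570 in Hv libraries. How many other isomiRs had Lv ratios or shares apart from both groups was not counted. The log2 difference of the share between Lv and Hv was -0.89 (exact two-sided permutation p = 0.2, adjusted p = 0.75), and that of the ratio -1.01 (exact p = 0.1, the smallest possible, adjusted p = 1). Among miR156.4, miR156.5 and miR156.6, the 20-nt form held 81.1 to 87.2% in every library. The order of these 3 forms, 20 nt before 19 nt before 21 nt, was the same in all 9. The order leaves out miR156.3, which has no sequence here and by the study's account would be shorter than 19 nt. Its counts were 0.75 to 1.49 times those of miR156.5, so that the 20-nt form did not lead the family in every library.

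Across the 9 libraries miR156.4 and miR156.5 varied together the most, with a Pearson correlation of 0.85 between their log2 TMM-normalized CPM. For miR156.3 the correlation was 0.70 with miR156.4 and 0.62 with miR156.5, and for miR156.6 it was 0.30 to 0.38 with the others. The counts of miR156.6 were 1 to 17 per library, so that counting error alone can lower its correlations. Among 24 other miRNAs with at least 20 counts per library on average, those most like miR156.5 were miR166.4 (0.52), miR166.5 (0.51) and hvu-new44 (0.44), and the least like was hvu-new2 (-0.51). These correlations describe 9 libraries that share runs and depth, and isomiRs of the same hairpins share their source.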

How the data were processed

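The authors trimmed the reads, kept lengths of 17 to 25 bases, removed tRNA and rRNA, mapped the rest to the barley genome (IBSC_v2, Ensembl Plants 40), counted known miRNAs with miRProf (miRBase 22.1, no mismatch) and predicted further ones with miRCat. The deposited values used are their raw counts of 142 miRNAs in 9 libraries, with no normalization. Another 9 per-sample columns in all, of normalized counts, and the authors' DESeq2 fold changes and p-values were not used. The 3 replicates of a group are biological, of pooled seeds. Rc had 4 samples in the labels, since replicate 1 was sequenced in both runs, but a single column for that replicate.

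Rows with at least 10 counts were tested in edgeR 4.0.16 (R 4.3.3) with TMM and the quasi-likelihood test, Benjamini-Hochberg adjusted over all 99 rows. Family levels (RPM of the study's mapped reads, pseudocount 1) and isomiR shares (pseudocount 0.5) were compared with exact permutation tests in scipy 1.17.1, over 9 families and 25 isomiRs. The smallest p was 0.0238 for 6 against 3. Hairpins were folded with RNAfold (ViennaRNA 2.7.2). Scripts were tested on simulated data. DESeq2 1.42.0 was an alternative. Sequences and loci come from the study's supplementary tables.

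Members, lists and rules were chosen with earlier results of these data known. Named were all members, the families miR159 and miR166, the 3 miRNAs most like miR156.5 and the 1 least like it, each hairpin of hvu-new54, and the SPL sites. The replicate numbers were not taken as pairs, since 2 of 9 same-numbered pairs had a correlation of deviations over 0.1 (range -0.227 to 0.192).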

Additional observations from a re-analysis of the deposited data

How the results depend on the processing

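The miR156 family difference was below 0 in all 50 alternative values over the 4 comparisons, most of them in RPM. None of the 49 with a test passed the threshold (libraries of run 2 only, for Lv against Hv, gave no test). Tests of 3 against 3 libraries or fewer could not have passed, since 3 against 3 allows no exact p below 0.1. For 6 against 3 the smallest p was 0.0238 before adjustment over 9 families. That none passed is therefore no check of the difference. Leaving out 1 library in turn, which was done in RPM only, the family difference ranged from -0.55 to -0.21 for Hv against Rc. For Lv against Hv it ranged from -0.53 to -0.21. In TMM-normalized CPM, Rc replicate 2 stood at 73871 and Rc replicates 1 and 3 at 42836 and 51613. The Hv libraries stood at 51637, 44441 and 62834 on that scale. The direction without Rc replicate 2 was not tested there. No miR156 member passed the edgeR or DESeq2 threshold in any alternative. Called miRNAs of the whole table numbered 0 for each comparison with TMM. With no filter on low counts they were 2 for stored against Rc and 1 for Lv against Rc, and with DESeq2 3, 2 and 1 for stored, Lv and Hv against Rc. Leaving out 1 library in turn gave 0 to 1 in each comparison. The log2 fold change changed sign in 21 of 332 cases. For Hv against Rc, miR156.3 and miR156.6 were at -0.25 and -0.28 with library sizes from mapped reads, -0.086 and -0.086 with no filter, -0.0049 and -0.047 without repeated rows, and -0.063 and -0.16 with known miRNAs only. With the run in the model and no Rc replicate 1, miR156.3 was at -0.34 for Hv against Rc and miR156.6 at 0.24 for stored against Rc. The cause was not tested. With 1 library left out, miR156.4 and miR156.5 ranged from -0.68 to -0.24 and from -0.42 to -0.21 for stored against Rc, and miR156.3 ranged from -0.41 to 0.31 for stored against Rc, from -0.66 to 0.063 for Lv against Rc and from -0.22 to 0.51 for Hv against Rc, and miR156.6 from -0.14 to 0.10 for Hv against Rc. Both upper values of miR156.3 against Rc for stored and Lv came without Rc replicate 2. The share differences that changed sign when 1 library was left out (9 of 152) were those of miR156.5 for stored against Rc (-0.41 to 0.033) and Lv against Rc (-0.29 to 0.15), of miR156.3 for Lv against Rc (-0.061 to 0.41) and of miR156.6 for Hv against Rc (-0.16 to 0.41).

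With the replicate number as a block, 0 miRNAs were called in each comparison. The family difference of stored from Rc then had an exact permutation p of 0.0741, the smallest possible (adjusted p = 0.5). The pairing changed no call. With 3 libraries of 193 to 904 miR156 counts per group, differences of the size seen could not be told from the spread after adjustment.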
